A study of Mus musculus with 32 samples.

Results

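The actin, tropomyosin and contractile genes described here are 10 genes taken by symbol from the deposited count table, 10 of the 20234 genes listed. They are the smooth muscle actin Acta2, the cytoplasmic actins Actb and Actg1, the actin-binding proteins Tagln (transgelin) and Cnn1 (calponin), the tropomyosins Tpm1, Tpm2 and Tpm4, and the myosin light chains Myl6 and Myl9. They were taken by name, with earlier results of these data known, and all 10 passed the filter on low counts in each test.

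Actin monomers polymerise into filaments, tropomyosins lie along the filaments and set which proteins can bind them, and bundles of such filaments with non-muscle myosin form the stress fibres by which fibroblasts pull on their surroundings. Many genes of this group are targets of the transcription factor SRF, which binds a DNA element called the CArG box. SRF's coactivators, Mkl1 and Mkl2 (myocardin-related transcription factors), are held by free actin monomers and released when actin polymerises.

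The cells were mouse embryonic fibroblasts (MEFs), cultured cells derived from mouse embryos. There were 4 conditions with 4 replicates each, namely thapsigargin for 0 h (the control), for 1 h, for 16 h with a PERK inhibitor added for the final 4 h, and for 16 h without inhibitor. Thapsigargin blocks the pump that fills the endoplasmic reticulum (ER) with calcium and so causes ER stress, and PERK is the stress-activated ER kinase that slows initiation of translation through the factor eIF2. From each of the 16 samples, cytosolic RNA and RNA from gradient fractions with more than 4 ribosomes per mRNA (polysome RNA) were sequenced, giving 32 libraries. Genotype and isolate of the MEFs, the thapsigargin dose, the inhibitor's name and dose, and any solvent control: none of these is stated in the sources used here.

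Library totals ran from 19.32 to 41.78 M counts. Control cytosolic replicate 1 stood farthest from the other libraries of its condition, with a median absolute deviation of 0.168 on the log2 scale over genes. It was followed by 16 h cytosolic replicate 1 at 0.140, control polysome replicate 3 at 0.124 and control cytosolic replicate 2 at 0.121. Of 10 fibroblast markers, 8 were above 1 CPM (counts scaled to library size) in cytosolic RNA of each condition. The remaining fibroblast markers, Lum and Dcn, had at most 0.0210 and 0.240 CPM in any condition's mean. The summed fibroblast markers ran from 7178 to 10104 CPM in control, from 16903 to 20448 CPM at 1 h, from 3807 to 4366 CPM with the inhibitor and from 4024 to 4686 CPM at 16 h. Summed markers of epithelial and endothelial cells stayed at or under 1.54 CPM in each library. Markers of blood cells summed to 3.14 to 4.05 CPM in control, 1.301 to 2.58 CPM at 1 h, 2.21 to 2.36 CPM with the inhibitor and 0.815 to 1.51 CPM at 16 h. Among these 5 markers, 2 were above 1 CPM in control, Lyz2 (1.84 CPM) and Cd68 (1.72 CPM). Cd3e was at 0 and Ptprc at most 0.0235 CPM in any condition's mean. Markers of skeletal and cardiac muscle summed to 11.6 to 15.2 CPM in control, 20.4 to 26.0 CPM at 1 h, 8.63 to 10.7 CPM with the inhibitor and 4.32 to 6.72 CPM at 16 h. In that list 2 of 8 genes, Acta1 and Tnnt2, were above 1 CPM, and Myog was at 0. A list of 7 markers of differentiated smooth muscle summed to 54.9 to 102 CPM in control, 95.6 to 117.9 CPM at 1 h, 51.3 to 64.6 CPM with the inhibitor and 25.2 to 40.7 CPM at 16 h. In that list 4 of 7 genes were above 1 CPM in control, Smtn (65.7 CPM), Synpo2 (8.68), Lmod1 (3.68) and Actg2 (2.2), and 3 were at 16 h. Its member Myh11 averaged at most 0.344 CPM in each condition. The part of these marker levels in the results below was not tested.

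In control cytosolic RNA the 2 cytoplasmic actins were the most abundant of the 10 mRNAs per length. Actg1 stood at 1236 ± 25.1 CPM per kb of exon (SD, n = 4) and Actb at 887 ± 79.7 CPM per kb. Acta2 followed at 289 ± 6.38 CPM per kb and Tpm4 at 245 ± 26.9 CPM per kb, and their libraries overlapped. Tpm1, at 193 ± 2.87 CPM per kb, and Tagln, at 182 ± 13.8 CPM per kb, overlapped as well. Myl6 stood at 148.2 ± 6.83, Myl9 at 66.1 ± 9.98, Tpm2 at 15.6 ± 3.01 and Cnn1 at 0.406 ± 0.122 CPM per kb, and these 4 overlapped with no neighbour in the order. The order below the actins depends on the length used: per kb of longest coding sequence Actg1 (2921 CPM) and Actb (2113 CPM) were followed by Tpm1 (1281), Myl6 (997), Tpm4 (727), Tagln (599.9) and Acta2 (562), with Myl9, Tpm2 and Cnn1 lowest again. Cnn1, a calponin typical of smooth muscle, was close to the lower end of detection, with 9 to 108 counts per library. Together the 10 mRNAs made up 1.09% ± 0.0533 of all cytosolic counts in control, 1.35% ± 0.0198 at 1 h, 0.540% ± 0.0113 with the inhibitor and 0.224% ± 0.0102 at 16 h. In polysome RNA their share was 2.31% ± 0.0721 in control, 1.41% ± 0.0332 at 1 h, 1.05% ± 0.0240 with the inhibitor and 0.240% ± 0.00771 at 16 h. In these bulk samples, fewer cells with a given mRNA and less of that mRNA per cell cannot be told apart.

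The promoters of Acta2, Actg1, Myl6 and Myl9 are shown because the 10 mRNAs moved together at 16 h and these windows hold a CArG box, the element bound by SRF, or, for Acta2, only the variant of it described next. RefSeq windows on GRCm38.p6 from 250 bases before to 50 after a start were given for 8 of the 10 genes, in 9 windows. Both strands were searched for the CArG box, a motif that reads the same on both strands, and for the same box with 1 G or C among its inner letters. Of 32851 RefSeq windows of that length, 1.63% held an exact box, 8.50% held the variant and 9.98% held either. The stretches below are the 200 bases before the start, 5′ to 3′ on the gene's strand, with boxes and variants in capitals. The Acta2 stretch is chr19:34255374-34255573 on the minus strand, Actg1 is chr11:120348496-120348695 on the minus strand, Myl6 (the second of its windows) is chr10:128493010-128493209 on the minus strand and Myl9 is chr2:156775264-156775463 on the plus strand.
Acta2: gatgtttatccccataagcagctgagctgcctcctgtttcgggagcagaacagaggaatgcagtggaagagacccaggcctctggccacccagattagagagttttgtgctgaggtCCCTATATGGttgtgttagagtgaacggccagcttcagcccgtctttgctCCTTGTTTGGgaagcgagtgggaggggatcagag
Actg1: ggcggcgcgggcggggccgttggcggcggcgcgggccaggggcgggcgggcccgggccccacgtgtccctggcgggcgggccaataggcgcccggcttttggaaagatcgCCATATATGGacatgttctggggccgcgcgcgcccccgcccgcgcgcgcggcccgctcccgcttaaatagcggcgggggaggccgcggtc
Myl6: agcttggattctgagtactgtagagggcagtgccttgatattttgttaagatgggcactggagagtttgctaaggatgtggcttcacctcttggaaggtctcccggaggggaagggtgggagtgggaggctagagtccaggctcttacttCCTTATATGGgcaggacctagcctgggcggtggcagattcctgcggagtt
Myl9: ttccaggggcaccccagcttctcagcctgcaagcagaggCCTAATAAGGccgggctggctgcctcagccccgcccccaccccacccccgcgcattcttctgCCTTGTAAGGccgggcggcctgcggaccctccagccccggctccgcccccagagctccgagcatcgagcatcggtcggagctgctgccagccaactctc
An exact box began 90 bases before the Actg1 start, 161 bases before the Myl9 start and 50 bases before the second Myl6 start. That Myl6 start lies downstream of the first, inside the gene. The variant began 84 and 34 bases before the Acta2 start and 99 bases before the Myl9 start. The windows of Cnn1, Tpm1, Tpm2 and Tpm4 and the first window of Myl6 held neither in these letters, and Actb and Tagln were not matched to a window. A match is a string of letters and was not tested as a binding site.

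In control cells most of the 10 mRNAs were enriched in the polysome fraction. The log2 ratio of polysome to cytosolic CPM averaged 2.10 ± 0.34 for Tpm2, 1.97 ± 0.06 for Acta2, 1.96 ± 0.18 for Actb and 1.70 ± 0.04 for Actg1 (SD, n = 4). These ratios were higher than those of 99.4%, 98.7%, 98.6% and 96.2% of the 12561 genes tested, whose median ratio was 0.03. Tagln averaged 1.51 ± 0.11, Tpm1 1.37 ± 0.05, Cnn1 1.19 ± 0.33 and Myl9 0.66 ± 0.25. Myl6 and Tpm4 stood apart at -0.08 ± 0.03 and -0.16 ± 0.18, below the median of all genes.

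**Figure D1:**
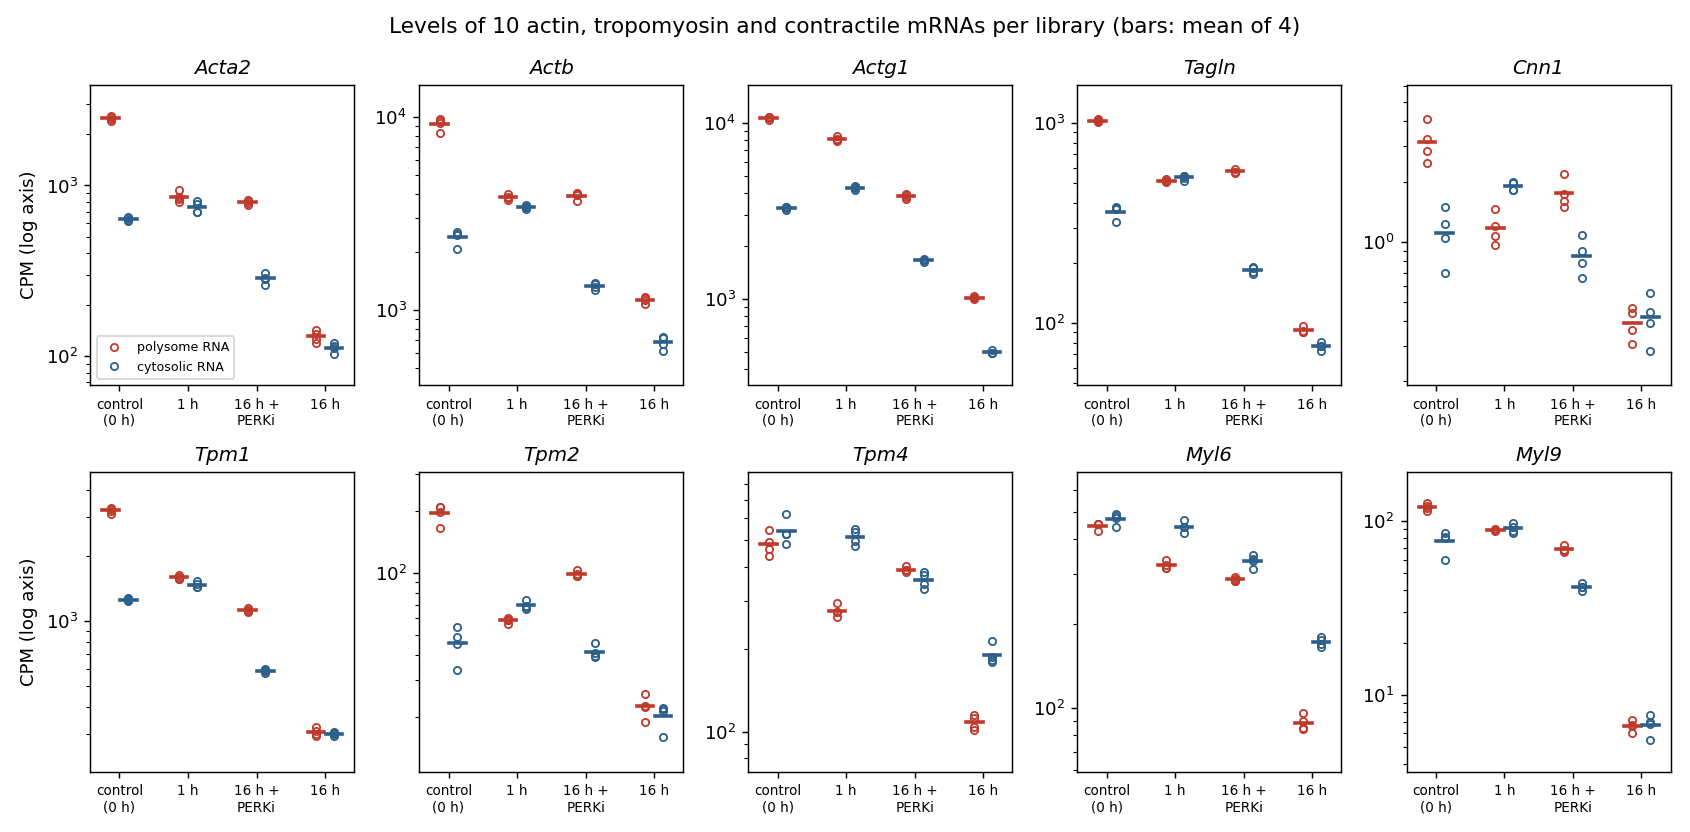
Level of each of the 10 mRNAs in every library, in CPM on a log axis, by condition; open circles are the 4 replicates of polysome RNA (red) and cytosolic RNA (blue), bars their means. In control the polysome levels of Acta2 (2395 to 2546 CPM) lie far above its cytosolic levels (618 to 651 CPM), and at 16 h both are lowest, at 119.3 to 141.5 and 103.2 to 118.7 CPM.

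After 1 h of thapsigargin, cytosolic levels of most of these mRNAs were slightly higher while their polysome levels were lower. In cytosolic RNA, 7 of the 10 were called higher and 0 lower by edgeR's quasi-likelihood test at a Benjamini-Hochberg adjusted p under 0.05, against 28.1% of all genes tested called higher. The increases were small, from 1.16-fold for Tpm1 (log2 change 0.21 ± 0.03, SE) to 1.68-fold for Cnn1 (0.75 ± 0.20). The members' median log2 change was 0.30, against 0.00 for all genes. Tpm4 (-0.08 ± 0.07), Myl6 (-0.11 ± 0.05) and Myl9 (0.23 ± 0.10) did not pass the test. Without control replicate 1 the call of Myl6 turned to lower (-0.15, adjusted p = 0.0127), and the Tpm2 change was 0.47 instead of 0.59. With all samples Myl6 was also called lower by DESeq2's Wald test (-0.12, adjusted p = 0.0417). The same held in edgeR for genes with a mean of at least 5 CPM (-0.12, adjusted p = 0.0425). Without control replicate 2 Myl9 was called higher (0.29, adjusted p = 0.0289).

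In polysome RNA at 1 h, 10 of 10 were called lower, against 38.5% of all genes. Tpm2, a tropomyosin of muscle and fibroblast filaments, had 59.0, 56.4, 60.4 and 58.6 CPM at 1 h, against 197, 209, 165 and 207 CPM in control. Its 1 h libraries lay within 4 CPM of each other and far below each control library, 3.20-fold lower (log2 change -1.68 ± 0.08, adjusted p = 2.16e-13). Acta2, the actin of contractile stress fibres, had 946, 835, 797 and 859 CPM at 1 h, against 2546, 2395, 2534 and 2465 CPM in control, a 2.79-fold decrease (-1.48 ± 0.05, adjusted p = 3.10e-16). Cnn1 was 2.61-fold lower and Actb 2.31-fold lower. Actg1 changed least, with 8477, 7910, 8073 and 8052 CPM at 1 h, against 10851, 10684, 10447 and 10825 CPM in control. These groups did not overlap either, but the difference was 1.27-fold (-0.34 ± 0.03, adjusted p = 1.14e-08).

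Translational efficiency denotes the polysome to cytosolic ratio of an mRNA, whose change between conditions was tested in edgeR as an interaction over both kinds of library. At 1 h it was called lower for 10 of 10 members, against 34.4% of all genes, and was at least 2-fold lower for 6 of them, against 12.0% of all genes. The median log2 change was -1.41 for the members and -0.01 for all genes. All 10 have longest coding lengths of 474 to 1131 nt, and of all genes with at least 450 and under 1200 nt, 49.6% were called lower. With a trend of each library on coding length in the fit, all 10 stayed called lower. The median was then -1.12 for the members and -0.07 for all genes. The per-sample log2 ratio of Tpm2 was -0.22, -0.24, -0.28 and -0.22 at 1 h, against 2.53, 1.93, 1.75 and 2.19 in control. Its 1 h samples were close to each other and its control samples were spread, and the fitted change was -2.35 ± 0.14. Cnn1 changed by -2.23 ± 0.27, Actb by -1.78 ± 0.09, Acta2 by -1.77 ± 0.07, Tagln by -1.57 ± 0.06 and Tpm1 by -1.25 ± 0.06. Actg1 (-0.78 ± 0.05), Tpm4 (-0.74 ± 0.09), Myl9 (-0.70 ± 0.11) and Myl6 (-0.37 ± 0.06) were called with decreases under 2-fold. The smallest change was that of Myl6, the essential light chain of non-muscle and smooth muscle myosin, whose log2 ratio was -0.39, -0.57, -0.48 and -0.37 at 1 h, against -0.04, -0.07, -0.09 and -0.11 in control. Scaling to library size hides any loss of polysomes that all mRNAs share, so each change is a shift relative to other mRNAs.

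**Figure D2:**
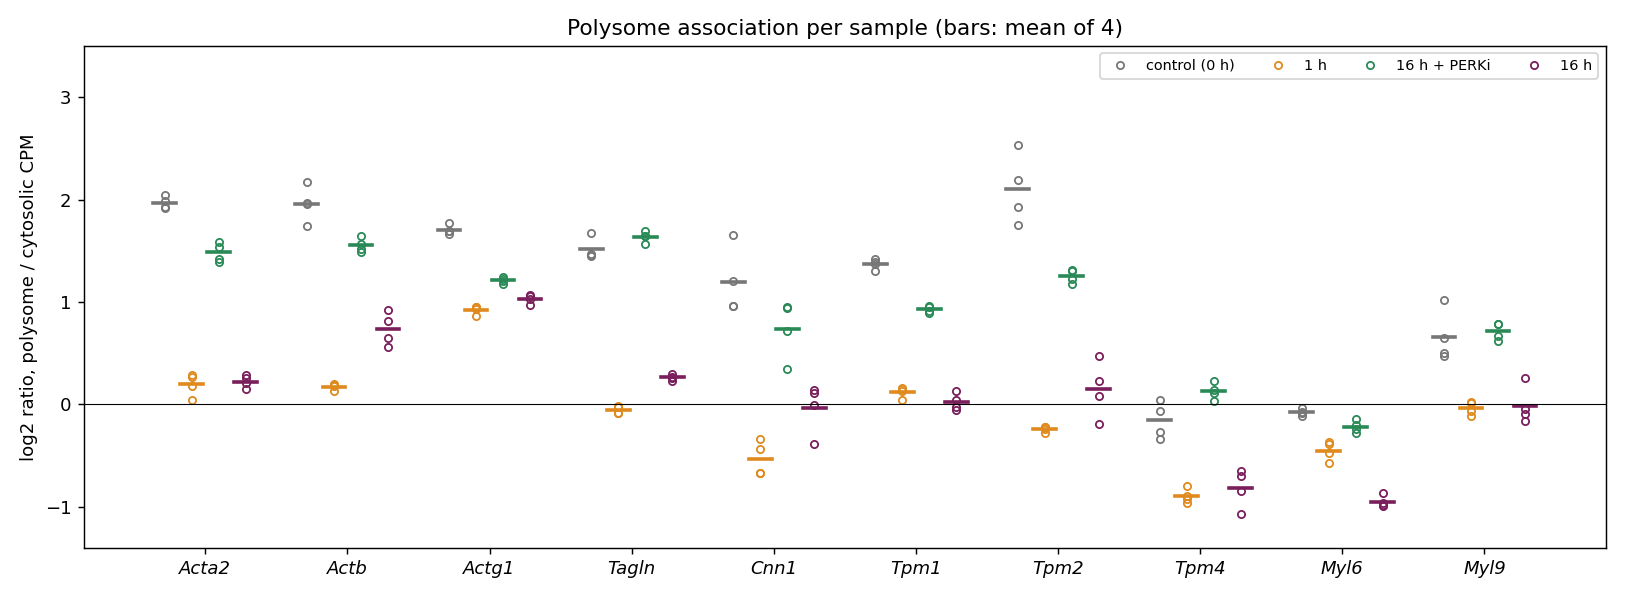
The log2 ratio of polysome to cytosolic CPM for each gene, with open circles for the 4 samples of each condition and bars for their means. For Tpm2 the 1 h samples lie at -0.28 to -0.22 and the control samples at 1.75 to 2.53, whereas for Myl6 all samples lie between -0.99 and -0.04.

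After 16 h of thapsigargin the cytosolic level of all 10 mRNAs was lower than in control. In cytosolic RNA 10 of 10 were called lower, against 39.4% of all genes, and all 10 were at least 2-fold lower, against 17.6% of all genes. The members' median log2 change was -2.05, against -0.01 for all genes. Myl9, the regulatory light chain whose phosphorylation switches smooth muscle and non-muscle myosin on, had 5.49, 6.80, 6.94 and 7.72 CPM at 16 h, against 59.8, 85.8, 81.2 and 80.5 CPM in control. Its 16 h libraries were all under 8 CPM and its lowest control library was replicate 1, and the fitted difference was 12.4-fold (log2 change -3.63 ± 0.12, adjusted p = 2.82e-14). Actg1 had 491, 492, 515 and 493 CPM at 16 h, against 3188, 3315, 3301 and 3338 CPM in control, a 7.18-fold decrease (-2.84 ± 0.04, adjusted p = 6.12e-19). Acta2 had 114, 103.2, 118.7 and 111 CPM at 16 h, against 618, 631, 641 and 651 CPM in control, which is 6.19-fold lower (-2.63 ± 0.06). In none of these 3 genes did the conditions overlap. How many of all genes were without overlap was not counted, and 77.3% of all genes were called in this comparison.

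The other members fell less in cytosolic RNA at 16 h. Tagln, which binds actin filaments along their sides, was 5.13-fold lower (-2.36 ± 0.06). Tpm1 had 307, 294, 300 and 304 CPM at 16 h, against 1243, 1231, 1272 and 1264 CPM in control, a 4.53-fold decrease (-2.18 ± 0.03). Actb, with 609, 714, 728 and 662 CPM at 16 h, against 2061, 2532, 2463 and 2451 CPM in control, was 3.81-fold lower (-1.93 ± 0.07). Tpm4, a tropomyosin of non-muscle cells, was 3.08-fold lower, Myl6 2.99-fold lower, Cnn1 2.89-fold lower and Tpm2 2.45-fold lower (-1.29 ± 0.13, adjusted p = 1.33e-07). Leaving out control replicate 1, all 10 were called lower, with Tpm2 at -1.41 and Myl9 at -3.74.

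In polysome RNA at 16 h, 10 of 10 were called lower, against 42.9% of all genes, and all 10 were at least 2-fold lower, against 22.3% of all genes. Acta2 had 126, 119.3, 141.5 and 135 CPM at 16 h, against 2546, 2395, 2534 and 2465 CPM in control, 20.03-fold lower (-4.32 ± 0.06, adjusted p = 8.22e-23). In polysome RNA 1.28% of genes had a lower log2 change than Acta2. Myl9 had 6.64, 6.03, 6.72 and 7.17 CPM at 16 h, against 121.99, 119.1, 115.2 and 126.7 CPM in control, a 19.1-fold difference (-4.26 ± 0.06). Tagln, Tpm1 and Actg1 were 11.8-fold, 11.1-fold and 11.1-fold lower. Tpm2 was 9.12-fold, Actb 8.59-fold and Cnn1 8.35-fold lower. Myl6 and Tpm4 changed least, at 5.29-fold and 4.72-fold lower.

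Translational efficiency at 16 h was called lower for 10 of 10 members, against 33.0% of all genes, and was at least 2-fold lower for 6, against 9.68% of all genes. The median log2 change was -1.23 for the members and -0.04 for all genes. The largest decreases were those of Tpm2 (-1.96 ± 0.14), Acta2 (-1.74 ± 0.07) and Cnn1 (-1.59 ± 0.34). The log2 ratio of Acta2 was 0.15, 0.21, 0.25 and 0.28 at 16 h, against 2.04, 1.92, 1.98 and 1.92 in control, with no overlap. Tpm1 (-1.35 ± 0.06), Tagln (-1.25 ± 0.06) and Actb (-1.22 ± 0.09) followed, and Myl6, Myl9, Actg1 and Tpm4 changed by -0.88, -0.68, -0.67 and -0.66. When the fit included a trend of each library on coding length, the members' median was -0.84, and Tpm4 was no longer called (-0.18, adjusted p = 0.121). Only Tpm2 (-1.45), Acta2 (-1.35) and Cnn1 (-1.08) were then still at least 2-fold lower. In a fit of polysome on cytosolic levels (partial variance) the median was -3.06 and Actg1 was not called (-2.77 ± 1.29, adjusted p = 0.0747). That fit takes the dependence from differences between samples of the same condition and extends it over the much larger cytosolic change between conditions. Tpm1 was at -4.25 ± 1.04 there, beyond its polysome change of -3.48.

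Between 16 h and 1 h, cytosolic RNA of 10 of 10 members was called lower, against 37.7% of all genes, with log2 changes from -3.86 (Myl9) to -1.47 (Myl6). In polysome RNA 10 of 10 were called lower as well, against 40.0% of all genes, from -3.86 (Myl9) to -1.48 (Tpm4). Translational efficiency was called higher for 3 members, against 14.5% of all genes, and lower for 1, against 13.6% of all genes. Actb (0.56 ± 0.09, adjusted p = 0.000114), Tagln (0.32 ± 0.06, adjusted p = 0.000818) and Tpm2 (0.39 ± 0.14, adjusted p = 0.0478) were higher at 16 h. Myl6 was lower, with log2 ratios of -0.99, -0.96, -0.99 and -0.87 at 16 h, against -0.39, -0.57, -0.48 and -0.37 at 1 h (-0.50 ± 0.06, adjusted p = 1.40e-05). The Tpm2 call was lost in 7 of the 8 fits that left out a 1 h or 16 h sample, each sample but 16 h replicate 3, with adjusted p from 0.0708 to 0.142 and log2 changes from 0.29 to 0.41. By partial variance 8 members were called lower and 0 higher, with a median of -1.70, and the 3 called increases turned to -2.04 for Actb, -1.93 for Tagln and -1.33 for Tpm2. The 16 h and 1 h conditions were both compared with the same control samples above.

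With the PERK inhibitor present for the last 4 h, all 10 mRNAs were higher than after 16 h of thapsigargin without it. In cytosolic RNA 10 of 10 were called higher, against 42.2% of all genes, and 9 were at least 2-fold higher, against 12.9% of all genes. The members' median log2 change was 1.07, against 0.10 for all genes. Myl9 had 42.04, 41.9, 44.0 and 39.7 CPM with the inhibitor, against 5.49, 6.80, 6.94 and 7.72 CPM at 16 h, a 6.43-fold difference (2.69 ± 0.12, adjusted p = 2.03e-12). The inhibitor libraries lay close together and well above each library at 16 h. Actg1 had 1662, 1672, 1685 and 1616 CPM with the inhibitor, against 491, 492, 515 and 493 CPM at 16 h, 3.46-fold higher (1.79 ± 0.04). Acta2 was 2.65-fold and Tagln 2.50-fold higher, and Tpm2, Cnn1, Actb, Tpm1, Myl6 and Tpm4 lay between 2.11-fold and 1.94-fold.

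In polysome RNA the inhibitor group was higher for 10 of 10 members, against 42.1% of all genes called higher, and all 10 were at least 2-fold higher, against 16.4% of all genes. The members' median log2 change was 2.06, against 0.04 for all genes. Myl9 had 73.0, 66.8, 67.9 and 68.5 CPM with the inhibitor, against 6.64, 6.03, 6.72 and 7.17 CPM at 16 h, 10.6-fold higher (3.41 ± 0.06, adjusted p = 8.19e-21). Tagln had 593, 569, 566 and 572 CPM with the inhibitor, against 89.9, 90.1, 91.7 and 97.1 CPM at 16 h, 6.36-fold higher (2.67 ± 0.04). Acta2 had 821, 811, 769 and 788 CPM with the inhibitor, against 126, 119.3, 141.5 and 135 CPM at 16 h, 6.23-fold higher (2.64 ± 0.05). For these 3 genes the lowest inhibitor library was far above the highest at 16 h. The other 7 ranged from 3.302-fold (Myl6) to 4.48-fold (Cnn1).

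Translational efficiency was called higher with the inhibitor than at 16 h for 10 of 10 members, against 26.4% of all genes. The median log2 change was 0.93 for the members and -0.09 for all genes. Tagln changed most, with log2 ratios of 1.64, 1.56, 1.65 and 1.69 with the inhibitor, against 0.30, 0.23, 0.25 and 0.27 at 16 h (1.37 ± 0.06, adjusted p = 3.57e-12). Acta2 changed by 1.26 ± 0.07, Cnn1 by 1.12 ± 0.35, Tpm2 by 1.11 ± 0.14, Tpm4 by 0.95 ± 0.09 and Tpm1 by 0.91 ± 0.06. Actb (0.82 ± 0.09), Myl9 (0.74 ± 0.12) and Myl6 (0.74 ± 0.06) came next. Actg1 changed least, with 1.24, 1.23, 1.18 and 1.20 with the inhibitor, against 1.06, 1.02, 0.97 and 1.07 at 16 h (0.18 ± 0.05, adjusted p = 0.00329). With the coding length trend in the fit the median was 0.53, the Actg1 change was -0.10 (adjusted p = 0.0795) and Cnn1 lost its call (0.68, adjusted p = 0.108). Cnn1 also lost it without 16 h replicate 3 (0.87, adjusted p = 0.0544). By partial variance the median was 1.98 and Actg1 was not called (1.52, adjusted p = 0.122).

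Set against control, the inhibitor group was lower in most members. Cytosolic RNA was called lower for 8, against 35.2% of all genes, with log2 changes from -1.23 (Acta2) to -0.57 (Myl6). Cnn1 (-0.46 ± 0.22) and Tpm2 (-0.22 ± 0.13) did not pass the test. Without control replicate 1 both were called lower, Cnn1 at -0.63 (adjusted p = 0.00773) and Tpm2 at -0.34 (adjusted p = 0.00374), and without inhibitor replicate 2 Cnn1 was called at -0.59 (adjusted p = 0.0331). Polysome RNA was called lower for 10 of 10, against 40.3% of all genes, from -1.68 (Acta2) to -0.36 (Tpm4). Translational efficiency was called higher for 1 member, against 16.3% of all genes, and lower for 5, against 27.1% of all genes. Tpm2 was the lowest (-0.85 ± 0.14), and Actg1 (-0.49), Acta2 (-0.48), Tpm1 (-0.44) and Actb (-0.40) were also lower. Tpm4 was the member called higher (0.28 ± 0.09, adjusted p = 0.0201), and its samples overlapped, with log2 ratios of 0.14, 0.11, 0.23 and 0.03 with the inhibitor, against -0.34, -0.06, 0.05 and -0.27 in control. That call was lost without control replicate 1 (0.22, adjusted p = 0.0665), without control replicate 4 (0.25, adjusted p = 0.0646) and without inhibitor replicate 3 (0.25, adjusted p = 0.0640). Tagln, Cnn1, Myl6 and Myl9 did not pass the test, and without control replicate 1 Tagln was called higher (0.18, adjusted p = 0.0124). By partial variance 9 members were called lower and 0 higher, with Tpm4 at -0.28 (adjusted p = 0.1298).

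**Figure D3:**
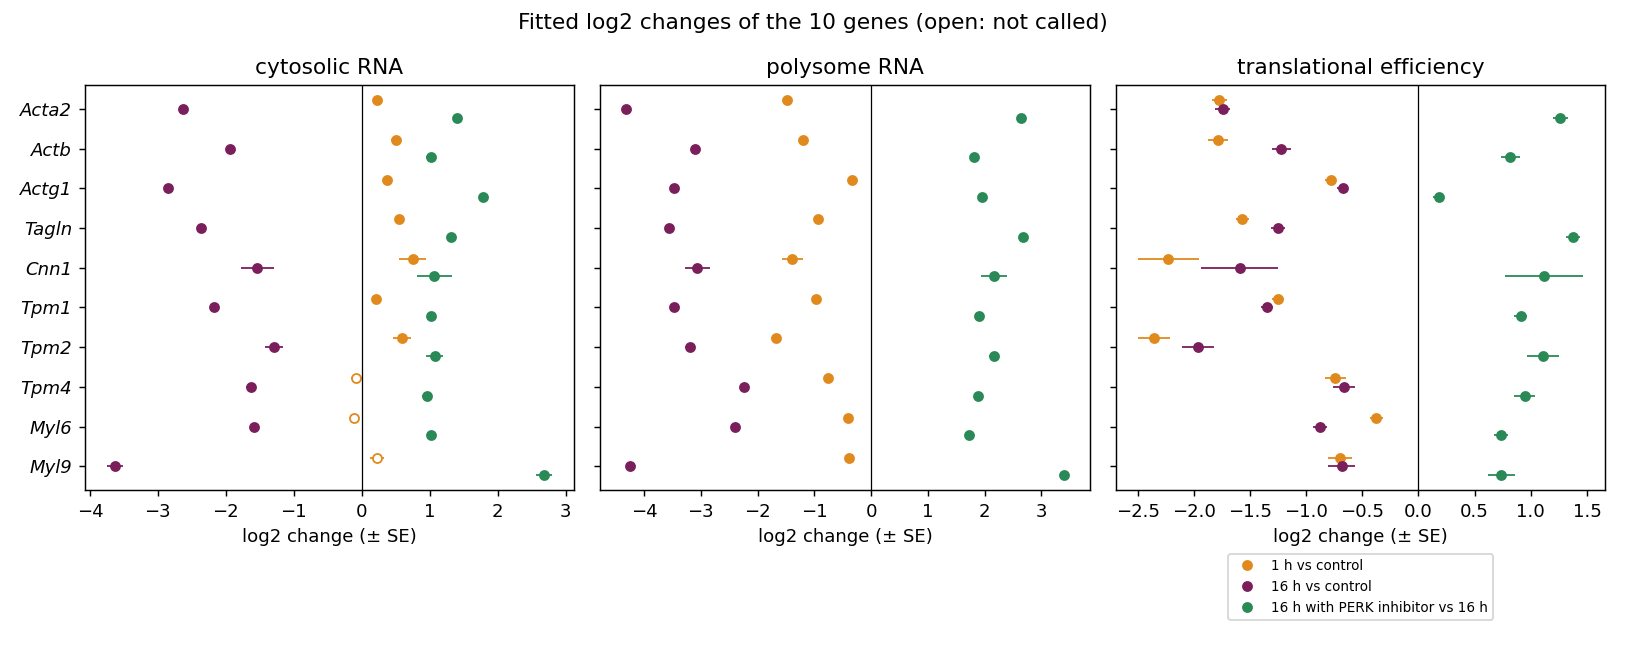
Fitted log2 changes with their SE for the 10 genes in cytosolic RNA, polysome RNA and translational efficiency; filled circles passed the test and open circles did not. In polysome RNA each gene is lower at 1 h and at 16 h than in control (from -4.32 to -0.34) and higher with the inhibitor than at 16 h (1.72 to 3.41).

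Close relatives within the group moved apart in some comparisons and together in others. Library scaling cancels in the difference between 2 genes of the same library, except for a gene near the pseudocount of 0.5 CPM such as Cnn1, and 42 such comparisons were made with a two-sided exact permutation test of 4 samples against 4, whose smallest p is 0.0286, or 0.0462 after Benjamini-Hochberg adjustment. Actb and Actg1 encode near-identical cytoplasmic actins. The log2 ratio of Actg1 minus that of Actb averaged 0.75 ± 0.01 at 1 h, against -0.25 ± 0.14 in control, so that the polysome shift of Actg1 was smaller by 1.00 (exact permutation test, adjusted p = 0.0462). In cytosolic RNA at 16 h the direction was the other way. The log2 level of Actg1 minus Actb was -0.44 ± 0.10 at 16 h, against 0.47 ± 0.11 in control, a difference of -0.91 (exact permutation test, adjusted p = 0.0462). With the inhibitor it was 0.32 ± 0.05, against -0.44 ± 0.10 at 16 h (difference 0.76, exact permutation test, adjusted p = 0.0462). For Acta2 minus Actb the log2 ratio differed from control by 0.01 at 1 h and by -0.52 at 16 h (exact permutation tests, adjusted p = 0.937 and 0.0462).

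Among the tropomyosins, the log2 ratio of Tpm2 minus Tpm1 averaged -0.36 ± 0.05 at 1 h, against 0.73 ± 0.36 in control, a difference of -1.09 (exact permutation test, adjusted p = 0.0462). Tpm4 minus Tpm1 differed by 0.51 at 1 h and by 0.69 at 16 h against control in the log2 ratio, and by 0.56 at 16 h in cytosolic level (exact permutation tests, adjusted p = 0.0462 each). In cytosolic RNA at 16 h, Tpm2 minus Tpm1 differed by 0.92 from control (exact permutation test, adjusted p = 0.0462), so the loss of Tpm2 was smaller than that of Tpm1. In the log2 ratio at 16 h that pair differed by -0.61 (exact permutation test, adjusted p = 0.124). Between the inhibitor group and 16 h no tropomyosin pair passed (exact permutation tests, adjusted p from 0.400 to 0.892). Those differences ran from -0.11 to 0.05 in cytosolic level and from -0.16 to 0.20 in the log2 ratio. Of the light chains, Myl9 minus Myl6 in cytosolic RNA was -4.58 ± 0.18 at 16 h, against -2.63 ± 0.18 in control, a difference of -1.96, and it was -2.98 ± 0.06 with the inhibitor, against -4.58 ± 0.18 at 16 h, a difference of 1.60 (exact permutation tests, adjusted p = 0.0462 each). In the log2 ratio the Myl9 minus Myl6 difference at 16 h was 0.20 (exact permutation test, adjusted p = 0.360). With the inhibitor against 16 h it was -0.005 (exact permutation test, adjusted p = 0.971). Cnn1, at 0.285 to 4.10 CPM, lies near the pseudocount, so its pair values depend on it. For Cnn1 minus Tagln the log2 ratio differed by -0.16 at 1 h and by 0.02 at 16 h from control (exact permutation tests, adjusted p = 0.375 and 0.937), and a pseudocount of 1 turned the 1 h value to 0.16. In cytosolic RNA at 16 h the pair differed by 1.43 from control, and with the inhibitor by -0.71 from 16 h in level and by -0.60 in the log2 ratio (exact permutation tests, adjusted p = 0.0462 each). The fits on counts put these 2 genes closer together. For Cnn1 and Tagln they gave -1.53 ± 0.25 and -2.36 ± 0.06 in cytosolic RNA at 16 h. With the inhibitor against 16 h they gave 1.07 ± 0.26 and 1.32 ± 0.06 in cytosolic RNA, and 1.12 ± 0.35 and 1.37 ± 0.06 in translational efficiency.

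Other genes of the actin cytoskeleton were read from 7 lists of 71 genes, of which 67 were tested in cytosolic and polysome RNA and 68 in translational efficiency. The lists were other actins and Tpm3, non-muscle myosin and its control, filament binding and cross-linking, actin turnover, the Arp2/3 complex (which nucleates branched filaments), focal adhesion, and SRF with its coactivators. At 1 h, 34 of the 67 were called higher in cytosolic RNA and 7 lower, against 28.1% of all genes higher and 28.1% lower. Filament binding genes counted 12 of 16 higher, among them Flna (0.64 ± 0.05), a filamin that cross-links filaments. Acta1, the actin of skeletal muscle, was higher by 1.14 ± 0.19, and talin Tln1, which ties integrins to actin, by 1.62 ± 0.13, whereas vinculin (Vcl) was lower (-0.31 ± 0.04). Of the coactivators, Mkl1 was higher by 0.90 ± 0.20 and Mkl2 by 0.26 ± 0.07.

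At 16 h, 45 of the 67 were called lower in cytosolic RNA and 9 higher, against 39.4% of all genes lower and 37.9% higher, with a median log2 change of -0.63. Filament binding genes counted 13 of 16 lower, with palladin (Palld) at -2.06 ± 0.05 and alpha-actinin Actn1 at -1.69 ± 0.05. Focal adhesion genes counted 7 of 10 lower, with Vcl at -3.16 ± 0.05 and the filamin-binding protein Fblim1 at -2.93 ± 0.08. Actin turnover genes counted 11 of 16 lower, with cofilin Cfl1 at -0.98 ± 0.04 and its cofactor Wdr1 at -1.62 ± 0.04. Mylk, the kinase that phosphorylates the regulatory light chain, was lower (-2.56 ± 0.14), but of the 12 genes of non-muscle myosin and its control 5 were called lower, a share near that of all genes, and 2 higher. Srf itself was lower (-2.11 ± 0.14) and Mkl1 was higher (0.49 ± 0.20). With the inhibitor, 43 of the 67 were called higher than at 16 h and 10 lower, against 42.2% of all genes higher and 32.5% lower. Cnn2, a calponin of non-muscle cells, was higher by 2.78 ± 0.12, Lasp1 by 2.06 ± 0.05, profilin Pfn2 by 2.06 ± 0.07, Fblim1 by 2.33 ± 0.08, Vcl by 1.43 ± 0.04 and Srf by 1.22 ± 0.14. The lists differed. Filament binding and actin turnover genes each counted 12 of 16 higher and 1 lower. Focal adhesion genes counted 4 of 10 higher and 3 lower, with a median log2 change of 0.07, against 0.10 for all genes. Non-muscle myosin and its control counted 6 of 12 higher and 4 lower, and SRF with its coactivators 1 of 3 higher and 0 lower.

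In translational efficiency these other actin genes were called in both directions. At 1 h, 37 of 68 were called lower and 17 higher, against 34.4% of all genes lower and 33.4% higher. At 16 h, 31 were called lower and 23 higher, against 33.0% of all genes lower and 31.1% higher. With the inhibitor, 33 were called higher than at 16 h and 25 lower, against 26.4% of all genes higher and 33.7% lower. The 10 members have longest coding lengths of 474 to 1131 nt in the GRCm38 annotation. Of 33 other actin genes with at least 450 and under 1200 nt, 25 were called lower at 16 h and 2 higher, whereas 51.5% of all genes of that length were called lower. At 1 h, 29 of these 33 were called lower and 2 higher, against 49.6% of all genes of that length called lower. Of 14 genes with 3000 nt and over, 10 were called higher at 16 h and 0 lower, and 64.3% of all genes of that length were called higher. The 15 genes between these classes were mixed, with 8 called higher and 5 lower, and of 4 genes under 450 nt 2 were called higher, the thymosins Tmsb4x (0.88 ± 0.30) and Tmsb10 (0.54 ± 0.20), and 1 lower. With the inhibitor 27 of the 33 shorter genes were called higher than at 16 h, against 47.2% of all genes of that length, and 11 of the 14 longer ones lower, against 67.4%, with 2 of the 14 higher. Genes without a matched coding length, such as Mkl1, are in none of the classes. These length classes were chosen after the values were seen.

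Several short genes of the lists changed in the direction of the 10 genes. Tpm3, the remaining tropomyosin gene, changed by -1.21 ± 0.06 at 16 h from control and by 1.04 ± 0.06 with the inhibitor from 16 h, and Tagln2 by -1.60 ± 0.06 and 1.44 ± 0.06. Cfl1, which severs filaments, changed by -1.22 ± 0.05 and 1.33 ± 0.05, and the capping protein Capzb by -1.35 ± 0.06 and 1.26 ± 0.06. Of the long ones, Vcl changed by 2.52 ± 0.07 at 16 h and by -1.60 ± 0.07 with the inhibitor, and Myh10, a heavy chain of non-muscle myosin, by 1.10 ± 0.06 and -0.98 ± 0.06. The light chains moved in the opposite direction to that heavy chain at 16 h, with Myl6 at -0.88 ± 0.06 and Myl9 at -0.68 ± 0.12. The part of coding length was not tested beyond the fits with a coding length trend given above.

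**Figure D4:**
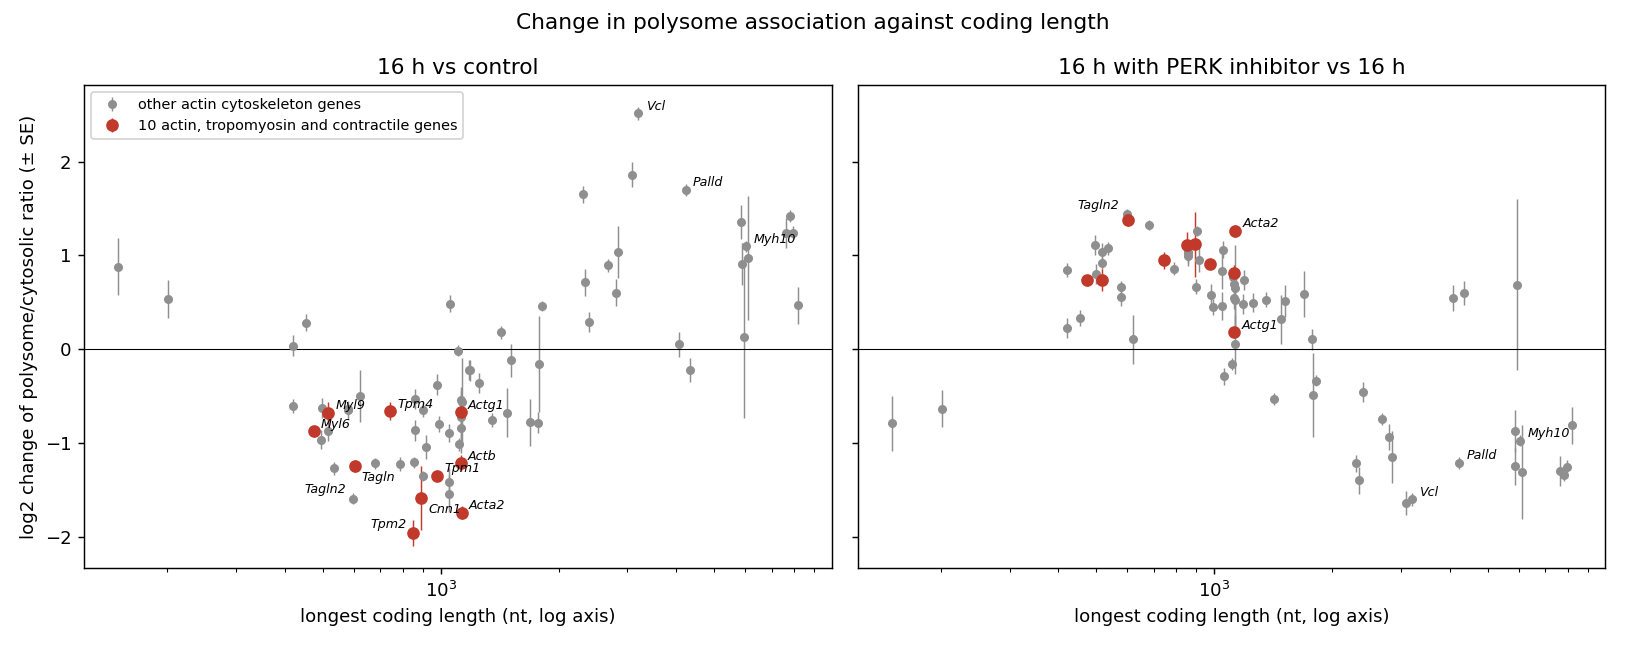
Log2 change of translational efficiency with its SE against the longest annotated coding length (log axis) for the 10 genes (red) and the other actin cytoskeleton genes (grey), for 16 h against control and for the inhibitor group against 16 h. The 10 genes lie at 474 to 1131 nt and from -1.96 to -0.66 at 16 h, whereas Vcl, a long gene, lies at 2.52, and the signs are turned in the other panel.

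The mRNAs whose log2 CPM followed Acta2 most closely over the 32 libraries were Csrp1, a LIM protein of actin filaments (Pearson's r = 0.991), Tpm1 (r = 0.990) and Tagln (r = 0.987), among 9932 genes with a mean of at least 5 CPM. Those closest to Actb were Ptgr1 (r = 0.985), Cnp (r = 0.984) and Acta2 (r = 0.978), and those closest to Tpm2 were Psmb8 (r = 0.984), Ano8 (r = 0.969) and Ddr1 (r = 0.966). Among the members themselves, the lowest r was 0.645, between Actb and Tpm4, whereas Tpm4 and Myl6 had an r of 0.962. The points share libraries, conditions and RNA kinds, so these values are descriptions.

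In the GRCm38 annotation all 10 genes are protein-coding and have 1 locus each. Acta2 lies at chr19:34241090-34255590, Actb at chr5:142903115-142906754, Actg1 at chr11:120345690-120348542, Tagln at chr9:45929619-45936058 and Tpm1 at chr9:67022590-67049406, all on the minus strand. Tpm2 (chr4:43514711-43523765) and Myl6 (chr10:128490860-128494145) are also on the minus strand. Cnn1 (chr9:22099216-22109630), Tpm4 (chr8:72134975-72153142) and Myl9 (chr2:156775420-156781658) are on the plus strand. Some counts may hold reads of other genes. Actins resemble each other in coding sequence, and how far their reads are shared was not measured. Tagln overlaps Pcsk7 and Gm48529 on the other strand, Tpm4 overlaps the antisense gene Gm26586, and Actg1 overlaps the small RNA genes Gm23419 and Mir6935. With the counting tool and its use of strand not stated in the sources used here, reads of these overlapping genes cannot be told apart.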

How the data were processed

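MEFs in 4 conditions gave 16 samples and 32 libraries. The deposited file lists raw counts by gene symbol, and its columns were matched to samples by the name in the sample description. The authors used HISAT, DESeq2 1.9.23 and build mm10, per the submitters' processing notes; which counting tool, strand setting and annotation were used is not stated in the sources used here. Of 20234 genes, 3234 were at 0 in every library.

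Tests were run in edgeR 4.0.16 with R 4.3.3 and limma 3.58.1 (filterByExpr with minimum count 10 and minimum total 15, TMM factors, robust quasi-likelihood test, Benjamini-Hochberg adjustment over all genes, called under 0.05). The 16 cytosolic libraries (12366 genes) and the 16 polysome libraries (12065 genes) were fitted separately, and translational efficiency (12561 genes) over 32 libraries with the sample as a block, each with 12 residual degrees of freedom. The block is taken from the design text, by which each sample's RNA was divided; deviations from group means correlated between paired libraries with a median of 0.172 (-0.724 to 0.551). Levels are CPM with TMM factors over all 32 libraries, and log2 values of levels and ratios used a pseudocount of 0.5 CPM, so printed levels and fitted folds differ somewhat. Errors are SD for levels and SE for fitted changes.

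Whether replicates were separate cultures is not in the labels, so the p-values rest on a spread between samples that may be technical. No pair of libraries of a group agreed within sampling noise (chi-square per degree of freedom at least 2.29 over 48 pairs). The 10 members, the companion lists and the tests were chosen with earlier results of these data known. All 10 members are named in every comparison, and of each companion list up to 2 called genes with the smallest p; some results are not reported here. Actc1, Arpc4 and Myocd were not tested or not listed. Of the 13 genes of non-muscle myosin and its control, 12 were tested in cytosolic and in polysome RNA and all 13 in translational efficiency. On simulated data with 200 genes changed 2-fold between 1 h and control, the fits recovered 96.5% in cytosolic RNA (12138 genes), 98.5% in polysome RNA (11727 genes) and 88.5% in translational efficiency (12291 genes). The changed genes were drawn from those with higher counts, all others kept their control mean, and libraries were simulated independently. These rates therefore do not speak for mRNAs with few counts or for data in which most genes change. Alternatives were DESeq2 1.42.0, RLE size factors, other low-count filters, a replicate block, leaving out each sample, and for translational efficiency no sample block, a coding length trend (12130 of 12561 genes had a length) and partial variance, a fit of polysome on cytosolic levels. Promoter windows are RefSeq's on GRCm38.p6.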

Additional observations from a re-analysis of the deposited data

Results flagged for a closer look

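In 5 of 120 groups of 4 samples checked, 1 sample stood apart from the other 3 by Dixon's criterion, which chance does in about 1 in 20 groups. Actg1 had 515 CPM in 16 h cytosolic replicate 3, against 491 to 493 CPM in the others. Tagln had 321 CPM in control cytosolic replicate 1, against 372 to 379 CPM, and its log2 ratio in that sample was 1.68, against 1.45 to 1.46. Tpm2 had 16.0 CPM in 16 h cytosolic replicate 1, against 21.3 to 22.0 CPM. Myl6 had 429 CPM in control polysome replicate 1, against 451 to 454 CPM. Control cytosolic replicate 1 and 16 h cytosolic replicate 1 are also the libraries farthest from their conditions over all genes.

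For 7 members cytosolic RNA was called higher than control at 1 h and lower than control at 16 h. The direct contrast of 16 h with 1 h was -2.86 for Acta2, -2.44 for Actb, -3.22 for Actg1, -2.91 for Tagln, -2.28 for Cnn1, -2.39 for Tpm1 and -1.88 for Tpm2 on the log2 scale, each called by edgeR's quasi-likelihood test.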

How the results depend on the processing

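Of 150 member results, 150 kept their direction and call with the replicate block and 150 without a low-count filter, while 2 changed their call with RLE size factors and 3 with DESeq2. With the replicate block, called genes in cytosolic RNA at 16 h against control numbered 9466, against 9559 without it. No pairing of samples across conditions by replicate number was seen, as 4 of 16 cytosolic and 5 of 16 polysome libraries correlated best with their own number. These counts cannot decide whether samples were paired, since a pairing with little effect on the levels would not show in them. With a mean of at least 5 CPM, 130 of 135 results kept direction and call, and the small changes of translational efficiency between 16 h and 1 h turned to -0.0030 for Acta2 and -0.013 for Myl9; the cause was not tested. With the coding length trend 45 of 50 efficiency results kept direction and call, Tpm1 between 16 h and 1 h turned to 0.0038 and Actg1 with the inhibitor against 16 h to -0.10. That trend moved the median of all genes between 16 h and 1 h to 0.11, against 0.00 without it.

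Partial variance kept 34 of 50 results. Between 16 h and 1 h it called 8 members, against 4, and turned Acta2 to -1.48, Actb to -2.04, Actg1 to -2.28, Tagln to -1.93, Cnn1 to -1.34, Tpm2 to -1.33, Tpm4 to -1.28 and Myl9 to -3.57. In the inhibitor group against control it turned Tagln to -0.65, Tpm4 to -0.28 and Myl9 to -0.77. It measures another quantity, the polysome level beyond a fitted dependence on the cytosolic level. That dependence comes from the small differences between samples of the same condition, so its values over large cytosolic changes are extrapolations. Between 16 h and 1 h the SE was 1.48 for Actg1 and 1.16 for Tpm1. The cause of the changed results was not tested further.

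Leaving out 1 sample kept 1179 of 1200 values. The change of efficiency between 16 h and 1 h ran from -0.023 to 0.063 for Acta2 and from -0.072 to 0.069 for Myl9, and Myl9 in the inhibitor group against control from -0.0053 to 0.18. With a pseudocount of 1 the Cnn1 minus Tagln difference at 1 h was -0.10 in cytosolic RNA and 0.16 in the log2 ratio.

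RLE size factors moved the split of calls over all genes in translational efficiency, inhibitor against control, to 20.9% higher and 20.7% lower, against 16.3% and 27.1%. The coding length trend moved the split between 16 h and 1 h to 21.8% higher and 7.31% lower, against 14.5% and 13.6%. Depth limits Cnn1 most, with 9 to 14 polysome counts per library at 16 h.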
